A study of Sus scrofa with 6 samples.

Results

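The genes that make, export and sense sphingosine-1-phosphate (S1P) were examined in pig abdominal aorta. They were the sphingosine kinases SPHK1 and SPHK2, the exporter SPNS2 and the receptors S1PR1, S1PR2, S1PR3, S1PR4 and S1PR5, found by gene symbol as 8 of the 30477 genes of the deposited expression table. The 6 libraries came from male Wuzhishan miniature pigs. The NC group received normal chow, and the HFCF group received the same kind of chow enriched in fat, cholesterol and fructose, in both cases for 6 months before tissue collection. The labels describe the aortas of each group as sequenced in triplicate, read here as 1 library from each of 3 pigs, so p-values measure the spread between these 3 and 3 libraries. The labels give an age of 3 to 4 months and the methods of the study an older one, without a difference between the groups in either.

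S1P is a lipid messenger formed when a sphingosine kinase phosphorylates sphingosine, which ceramidases release from ceramide. SPNS2 carries S1P out of endothelial cells, phosphatases and the lyase SGPL1 remove it, and high density lipoprotein with apolipoprotein M carries it in plasma. The receptors are G protein-coupled. In blood vessels S1PR1 is known for sealing the endothelial barrier, S1PR2 and S1PR3 act in smooth muscle among other cells, and S1PR4 and S1PR5 are known mainly from leukocytes.

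The values are FPKM, fragments of a gene scaled by its exon length and by the reads mapped in the library. Levels may thus be compared between genes, while comparisons between libraries also depend on the scaling. The depth in reads is not known, but the smallest steps between low values gave relative depths of 1 to 1.37 in the NC group and 1.03 to 1.07 in the HFCF group. Differences were tested with limma on log2(FPKM + 0.1) in 15384 genes that averaged 0.1 FPKM or more, p-values were adjusted by Benjamini-Hochberg over all of them, and a gene counted as called below an adjusted p of 0.05. For the 15384 genes as a whole, the median log2 difference of HFCF minus NC was 0.32 with the values as deposited, and -0.01, -0.08 and 0.07 after median-ratio scaling, quantile normalization and rescaling to TPM. The deposited values summed to 272207 to 287141 FPKM in the NC libraries and to 330222 to 338690 FPKM in the HFCF libraries. A mitochondrial rRNA gene, ENSSSCG00000018061, had 0.295 to 0.686 FPKM in the NC group and 140.7 to 205.7 FPKM in the HFCF group. Another, ENSSSCG00000018063, was not higher, with 112.799 to 372.467 FPKM in the NC group and 100.997 to 130.451 FPKM in the HFCF group. The part of these library differences in the results was not tested. Differences on this scale understate the change of genes with low FPKM. The first HFCF pig stood apart by its blood and leukocyte RNA, with HBB, the beta chain of haemoglobin, at 2846 FPKM against 21.3 to 174.5 FPKM in the other 5 libraries.

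Markers of the aortic wall were present in every library. The summed FPKM of 6 contractile smooth muscle markers, among them MYH11 and ACTA2, was 15145 to 21336 in the NC group and 7660 to 12401 in the HFCF group, and 4 of the 6 were called lower. The sum of 9 endothelial markers ran from 143.5 to 256.6 FPKM in the NC group and from 117.3 to 292.2 FPKM in the HFCF group. Of the 9, 0 were called by limma and 2, TEK and KDR, were higher in the HFCF group at an unadjusted p under 0.05. All 8 macrophage markers were called higher, and their sum was 31.6 to 35.4 FPKM in the NC group and 431.5 to 1034 FPKM in the HFCF group. Higher calls were also made for 2 of 7 T cell markers, 1 of 4 of NK and cytotoxic cells, 1 of 4 of B cells, 1 of 3 of neutrophils and 1 of 4 of fibroblasts, and none among 4 lymphatic, 2 red blood cell, 3 platelet and 4 adipocyte markers tested, of which 1 lymphatic marker had an unadjusted p under 0.05 in limma. The sum of the 4 adipocyte markers was uneven between libraries. It was 167, 258 and 35.1 FPKM in the NC pigs and 92.1, 66.3 and 81.0 FPKM in the HFCF pigs, and its part in the results was not tested. In bulk tissue, fewer cells of a type and less RNA per cell cannot be told apart.

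None of the 8 S1P genes was called. All 8 passed the filter on low values, and 0 of 8 had an adjusted p under 0.05, against 28.9% of all tested genes. At an unadjusted p under 0.05 the count was 1 of 8, S1PR4, against 42.3% of all genes. The NC and HFCF ranges overlapped in all 8, whereas 48.2% of the tested genes had no overlap between the groups. The count of called S1P genes was also 0 without the first HFCF pig. The median log2 difference over the 8 genes was -0.04, which is 0.36 below the median of all tested genes. By exact two-sided permutation tests, which cannot go below p = 0.1 with 3 pigs against 3, the p-values of the single genes ran from 0.2 for S1PR4 to 1 for S1PR1 and SPNS2.

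**Figure D1:**
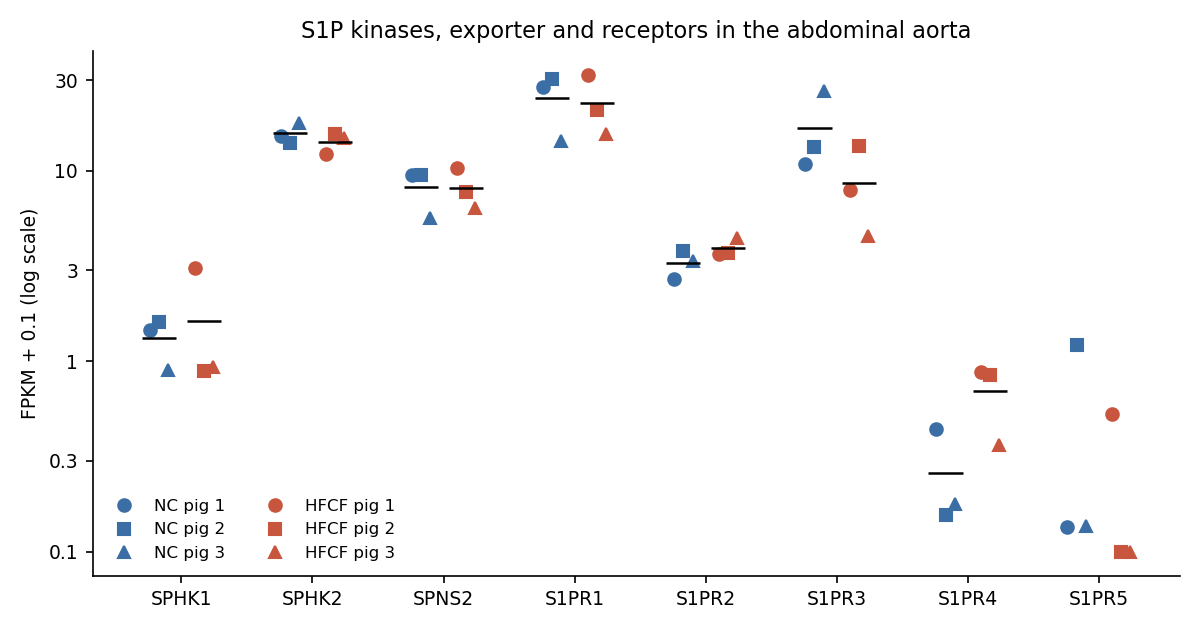
FPKM + 0.1 of the 8 S1P genes on a log axis, with a symbol for each pig, NC in blue and HFCF in red, and black bars at the group means except for S1PR5, which was listed at 0 in 2 libraries. The groups overlap for every gene, and for SPHK1, SPNS2 and S1PR1 the first HFCF pig is the highest of the 6.

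The levels of the 8 genes covered a wide range. Averaged over the 6 libraries, S1PR1 had the highest FPKM at 23.4 ± 7.60 (SD, n = 6), followed by SPHK2 at 14.9 ± 1.83, S1PR3 at 12.6 ± 7.44 and SPNS2 at 8.10 ± 1.90. Then came S1PR2 at 3.52 ± 0.569 and SPHK1 at 1.38 ± 0.845, with S1PR4 and S1PR5 under 1 FPKM on average. The upper part of this order was not the same in every pig. S1PR1 exceeded SPHK2 in 5 of 6 libraries, SPHK2 exceeded S1PR3 in 5 of 6, and S1PR3 exceeded SPNS2 in 4 of 6. SPNS2 lay above S1PR2, S1PR2 above SPHK1 and SPHK1 above S1PR4 in all 6 libraries.

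The kinases differed in level and in how far they varied between pigs. SPHK1, the mainly cytosolic and inducible kinase, had 1.37, 1.50 and 0.804 FPKM in the NC pigs and 2.98, 0.788 and 0.835 FPKM in the HFCF pigs. A single HFCF pig was high, while the other two lay at the level of the lowest NC pig. The log2 difference was 0.09 (SE 0.53, limma adjusted p = 0.914), with a 95% confidence interval from 0.45-fold to 2.52-fold, and it was -0.50 without the first HFCF pig and -0.24 after median-ratio scaling. SPHK2, found in the nucleus and mitochondria as well as the cytosol, had 15.2, 13.9 and 17.8 FPKM in the NC pigs and 12.2, 15.4 and 14.8 FPKM in the HFCF pigs. The second and the third HFCF pig lay within the NC range and the first below it. The log2 difference of SPHK2 was -0.14 (SE 0.16, limma adjusted p = 0.542), and the interval from 0.692-fold to 1.18-fold was the narrowest among the 8 genes. It was -0.50, -0.33 and -0.40 after median-ratio scaling, quantile normalization and rescaling to TPM, with the lowest limma adjusted p, 0.0684, after median-ratio scaling.

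Within a group, the SD of SPHK1 on the log2 scale was 0.784, larger than in 85.9% of the tested genes. For SPHK2 it was 0.177, larger than in 17.1%, and the median over all tested genes was 0.351. SPHK2 exceeded SPHK1 in all 6 libraries, with a log2 ratio of SPHK1 over SPHK2 of -3.39, -3.13 and -4.31 in the NC pigs against -2.00, -4.13 and -3.99 in the HFCF pigs. The ratio was highest in the first HFCF pig, and the groups overlapped (difference of means 0.23, exact two-sided permutation p = 0.8).

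SPNS2, the S1P exporter of endothelial cells, had 9.44, 9.46 and 5.57 FPKM in the NC pigs and 10.2, 7.64 and 6.29 FPKM in the HFCF pigs. Each group held high and low pigs, and the group means were 8.16 ± 2.24 and 8.04 ± 1.99 FPKM (SD, n = 3 each). The log2 difference was -0.01 (SE 0.28, limma adjusted p = 0.986), with an interval from 0.633-fold to 1.56-fold. SPNS2 shares part of its locus with MYBBP1A in the RefSeq annotation. MYBBP1A had 27.1 to 31.4 FPKM in the NC group and 18.4 to 21.7 FPKM in the HFCF group and was called lower (log2 difference -0.51, limma adjusted p = 0.033). Whether the counting used strand is not given in the sources used here, and the part of MYBBP1A reads in the SPNS2 values was not tested.

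S1PR1, the endothelial barrier receptor, had 27.6, 30.3 and 14.3 FPKM in the NC pigs and 31.9, 20.7 and 15.6 FPKM in the HFCF pigs. The third pig of each group was low and the ranges coincided almost fully. The log2 difference was -0.07 (SE 0.36, limma adjusted p = 0.898), and the 95% interval ran from 0.529-fold to 1.71-fold. With this spread between pigs, changes of S1PR1 within these bounds remain compatible with the data.

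S1PR2, which couples to GNA12 and GNA13 among other G proteins, had 2.61, 3.68 and 3.27 FPKM in the NC pigs and 3.57, 3.59 and 4.36 FPKM in the HFCF pigs. The second NC pig exceeded 2 of the HFCF pigs. Its log2 difference of 0.27 (SE 0.21, limma adjusted p = 0.364) was 0.05 below the median of all tested genes, and after median-ratio scaling and quantile normalization it was -0.08 and -0.21.

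S1PR3, a receptor of smooth muscle and other cells that also couples to GNAQ, had 10.8, 13.2 and 26.1 FPKM in the NC pigs and 7.85, 13.4 and 4.44 FPKM in the HFCF pigs. The third NC pig held the highest value and the third HFCF pig the lowest, while the second pigs of the groups were nearly equal. The group means were 16.7 ± 8.25 and 8.56 ± 4.52 FPKM (SD, n = 3 each). The log2 difference of -0.99 (SE 0.46, limma adjusted p = 0.151) had an interval from 0.236-fold to 1.08-fold. It ran from -1.38 to -0.59 when single libraries were left out, and its adjusted p from 0.0675 to 0.36 over all alternatives. Contractile smooth muscle markers were lower in the HFCF group. The mean log2 level of the 6 markers was lowest in the first HFCF pig, at -0.91 from its own average over the 6 libraries. In the third HFCF pig, where S1PR3 was lowest, it was -0.05. Against the mean log2 level of the 6 smooth muscle markers of the same library, S1PR3 was -7.70, -7.09 and -6.08 in the NC pigs against -6.53, -6.16 and -8.19 in the HFCF pigs. On this relative log2 scale the groups overlapped, with a difference of means of 0.00 (exact two-sided permutation p = 1). The SD of S1PR3 over the 6 libraries was 0.860 in this form and 0.847 for its log2 level alone. The part of smooth muscle in the S1PR3 values was not tested. S1PR3 shares part of its locus with SHC3, which had at most 0.021 FPKM in the NC group and 0.366 to 0.942 FPKM in the HFCF group, and its part in the S1PR3 values was not tested.

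**Figure D2:**
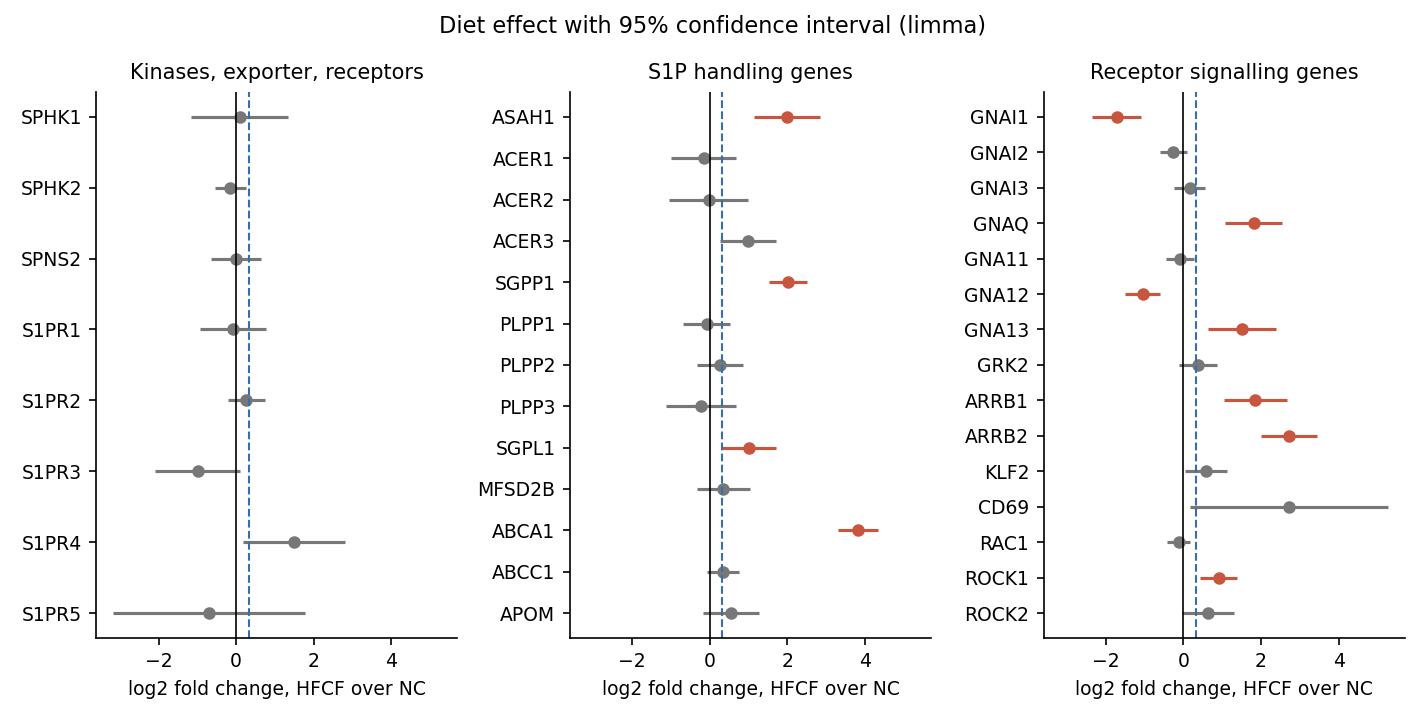
Log2 differences of HFCF minus NC from limma on log2(FPKM + 0.1) with 95% confidence intervals for the 8 S1P genes on the left, 13 S1P handling genes in the middle and 15 receptor signalling genes on the right, in red where the adjusted p was under 0.05, beside a solid line at 0 and a dashed line at the median of all tested genes, 0.32. None of the 8 S1P genes is red and 7 of their intervals include 0, and 4 handling and 7 signalling genes are red, where 28.9% of all tested genes were called.

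S1PR4, a receptor of lymphocytes and other leukocytes, was low in all pigs. It had 0.339, 0.0567 and 0.0781 FPKM in the NC pigs and 0.784, 0.748 and 0.265 FPKM in the HFCF pigs. The first NC pig lay above the third HFCF pig, and the other libraries followed their group. The means were 0.158 ± 0.157 and 0.599 ± 0.290 FPKM (SD, n = 3 each), a ratio of 3.79. The log2 difference was 1.49 (SE 0.56), with an interval from 1.14-fold to 6.99-fold. With limma, p was 0.0307 before and 0.0838 after adjustment. The log2 difference ran from 1.22 to 1.96 when single libraries were left out. By the thresholds of the study for a differentially expressed gene, a ratio of means above 2 or below 0.5 with an unadjusted p under 0.05, S1PR4 passed, as did 25.5% of all tested genes. At such low FPKM the log2 difference depends on the pseudocount, and it was 0.46 with a pseudocount of 1 and 2.11 with 0.01. Leukocyte markers were higher in the same libraries. The sum of 7 T cell markers was 1.11 to 1.57 FPKM in the NC group and 3.88 to 16.9 FPKM in the HFCF group. That of 4 NK and cytotoxic markers was 1.78 to 2.34 and 29.5 to 65.6 FPKM. NKG7, the only one of these 4 called, made up most of their sum, with 1.56 to 1.80 and 28.3 to 58.9 FPKM. Of the T cell markers, CD3G was listed at 0 in 1 library. The part of these cells in the S1PR4 values was not tested.

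S1PR5, known from natural killer cells and oligodendrocytes, had 0.0348, 1.13 and 0.0373 FPKM in the NC pigs and 0.432 FPKM in the first HFCF pig, and was listed at 0 in the other two. Its highest value came from a single NC pig. The log2 difference was -0.70 (SE 1.05, limma adjusted p = 0.649) and it was 0.36 without the second NC pig. Its SD within groups on the log2 scale, 1.63, was larger than in 98.5% of the tested genes.

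The makeup of the receptor mRNA was then compared within libraries, since a share does not depend on how libraries are scaled. The summed FPKM of the 5 receptors was 41.3, 48.3 and 43.8 in the NC pigs against 44.6, 38.4 and 24.6 in the HFCF pigs. The third HFCF pig was the lowest, and the group means of 44.5 ± 3.56 and 35.9 ± 10.2 FPKM (SD, n = 3 each) did not separate (exact two-sided permutation p = 0.3). S1PR1 made up 66.7%, 62.6% and 32.7% of this sum in the NC pigs against 71.6%, 53.8% and 63.2% in the HFCF pigs. S1PR1 was the leading receptor in 5 of 6 libraries, and in the third NC pig S1PR3 led with 59.6%. The share of S1PR3 elsewhere was 26.1% and 27.4% in NC pigs against 17.6%, 34.9% and 18.0% in HFCF pigs.

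The shares of S1PR2 and S1PR4 did not overlap between the groups, whereas the FPKM values of both genes did. For the deposited FPKM values, 48.2% of all tested genes had no overlap. A share also rises where the other receptors are lower, and the summed receptor FPKM was lowest, at 24.6, in the third HFCF pig. S1PR2 took 6.32%, 7.62% and 7.47% in the NC pigs against 8.01%, 9.35% and 17.7% in the HFCF pigs, a narrow gap apart from the third HFCF pig. S1PR4 took 0.820%, 0.117% and 0.178% against 1.76%, 1.95% and 1.08%. Both had the smallest p that 3 against 3 allows, 0.1 in the exact two-sided permutation test, and 0.25 after adjustment over the 5 receptors. For S1PR1, S1PR3 and S1PR5 the exact permutation p was 0.6, 0.3 and 0.5.

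**Figure D3:**
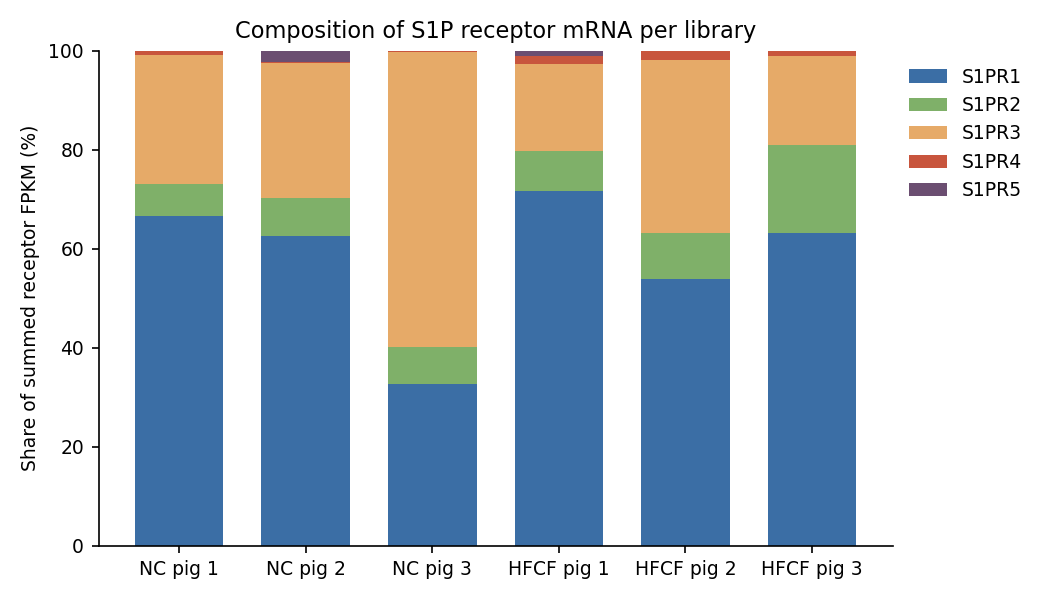
Stacked bars give the percentage of the summed receptor FPKM taken by S1PR1 to S1PR5 in each pig. S1PR1 and S1PR3 fill most of every bar, and the third NC pig differs from the other 5 by an S1PR3 share of 59.6% against an S1PR1 share of 32.7%.

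S1PR1, SPNS2 and SPHK1 varied across the 6 pigs alongside the endothelial markers. Each gene was set against the mean log2 level of the 9 endothelial markers of the same library, a comparison added after the values had been seen. Against that mean, S1PR1 was 0.73, 0.73 and 0.38 in the NC pigs against 0.31, 0.45 and 0.63 in the HFCF pigs on the log2 scale. Its SD over the 6 libraries was 0.183 in this form and 0.497 for the log2 level alone. For SPNS2 the SD was 0.223 against 0.352, and for SPHK1 it was 0.331 against 0.703. It was also smaller in this form for the low S1PR4, 0.962 against 1.07, and S1PR5, 1.22 against 1.50. It was larger for the other 3: for SPHK2 the SD was 0.645 against 0.177 and for S1PR2 0.602 against 0.235, and S1PR3, at 0.847 alone, also varied more in this form. These SDs are a description over 6 libraries, in which the endothelial markers and the members share each library's RNA.

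Relative to the endothelial markers, the diets did not separate for S1PR1, SPNS2 and SPHK1. The difference of means was -0.15 for S1PR1 (exact two-sided permutation p = 0.3), -0.09 for SPNS2 (exact permutation p = 0.7) and 0.01 for SPHK1 (exact permutation p = 1), while the marker mean itself differed by 0.08. That mean averages markers that differed in opposite directions, with log2 differences from -0.77 for CLDN5 to 1.18 for TEK. Over the 8 genes and both marker lists, endothelial and smooth muscle, 16 such comparisons were made, and the smallest p adjusted over them was 0.4. In 4 of the 16 the groups did not overlap and the exact permutation p was 0.1, the smallest possible: S1PR4 was higher in the HFCF group against the endothelial markers by 1.42, and S1PR4, S1PR2 and SPHK2 were higher against the smooth muscle markers by 2.48, 1.25 and 0.84. The smooth muscle marker mean itself differed by -0.99 in the HFCF group, so a gene of unchanged level is higher against it. The share of all genes without overlap was not computed on these relative scales, and it was 48.2% for the deposited values.

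**Figure D4:**
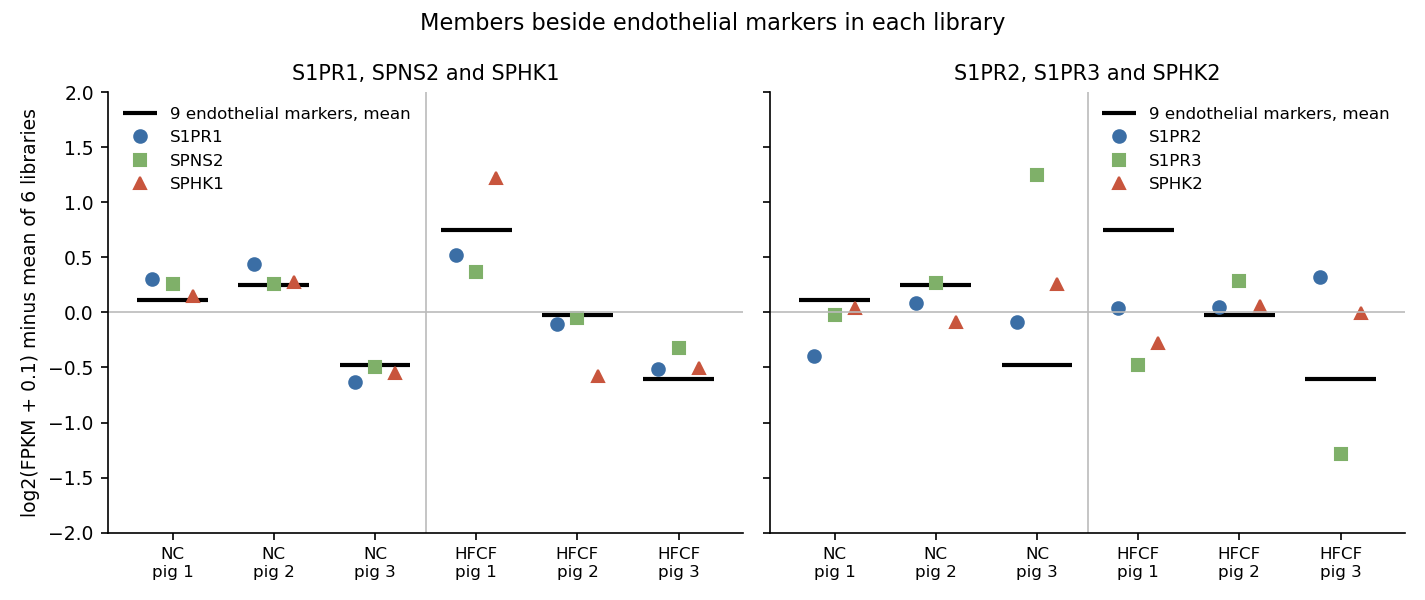
Log2 level of each gene in each pig, centred on the gene's own mean over the 6 libraries, with S1PR1, SPNS2 and SPHK1 on the left, S1PR2, S1PR3 and SPHK2 on the right, and black bars for the mean of 9 endothelial markers in both panels. On the left most points lie near the black bars, and all are low in the third pig of each group, whereas on the right they do not follow the bars.

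The genes with the most similar profiles were sought for each member among 9582 tested genes with a unique symbol and a mean of at least 1 FPKM, by the root mean square (RMS) difference of centred log2 values over the 6 libraries. For SPHK1 they were ADGRF5 (RMS difference 0.111) and VWF (0.150). VWF, von Willebrand factor of endothelial cells, had 31.4, 32.1 and 18.2 FPKM in the NC pigs and 50.9, 17.3 and 15.2 FPKM in the HFCF pigs, high in the first HFCF pig as SPHK1 was. For S1PR1 they were ECE1 (0.099), which activates endothelin, and PLAT (0.102), tissue plasminogen activator. PLAT had 55.3, 69.4 and 34.4 FPKM against 74.9, 41.7 and 35.3 FPKM, with the third pig of each group low as for S1PR1. VWF and PLAT were picked for their likeness to these members, so the shared patterns follow from the choice and are no independent result. VWF is also among the endothelial markers used above. For SPNS2 they were GGT5 and SH3KBP1, both at 0.076.

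An RMS difference under 0.2 was found for 0.031% of the candidates with SPHK1, 0.271% with S1PR1 and 0.532% with SPNS2. The RMS difference is not scaled by a gene's spread, so variable genes tend to have fewer candidates within 0.2 than flat ones. The within-group log2 SD was 0.784 for SPHK1 and 0.554 for S1PR1, against 0.177 for SPHK2 and 0.206 for S1PR2. The percentages are thus no measure of how specific a likeness is. The flat profiles of SPHK2 and S1PR2 had 10.1% and 8.50% of the candidates within 0.2, led by MUL1 (0.050) and TNPO2 (0.055) for SPHK2 and by KPNA1 (0.055) and CRYZ (0.063) for S1PR2. For S1PR3 the nearest were SLC2A12 (0.232) and KLHL30 (0.253). For S1PR4 they were LGMN (0.276), a lysosomal protease, and MEGF6 (0.328), and for S1PR5 PTHLH (0.661) and SNORD83A (0.705). No candidate lay within 0.2 of S1PR3, S1PR4 or S1PR5.

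Among 15 listed genes that supply and remove S1P, 13 passed the filter, and 4 were called higher and 0 lower. Over all tested genes 22.8% were called higher and 6.16% lower, so the share called in either direction, 30.8%, was close to the 28.9% of all genes. The median log2 difference of the 13 was 0.35, 0.03 above that of all genes. The called genes were the acid ceramidase ASAH1, the phosphatase SGPP1, the lyase SGPL1 and ABCA1, a cholesterol transporter that can also export S1P. SGPP1 had 1.91, 2.06 and 2.40 FPKM in the NC pigs and 11.2, 8.16 and 7.63 FPKM in the HFCF pigs, with no overlap (log2 difference 2.02, SE 0.21, limma adjusted p = 0.00166). ABCA1 had 0.872, 0.718 and 0.598 FPKM against 13.3, 11.0 and 10.5 FPKM (log2 difference 3.82, SE 0.21, limma adjusted p = 0.00026). The HFCF pigs lay far above the NC pigs for both genes.

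ASAH1, which frees sphingosine in lysosomes, went from 5.82, 8.18 and 9.68 FPKM to 53.6, 25.3 and 22.0 FPKM (log2 difference 1.99, SE 0.36, limma adjusted p = 0.00868). SGPL1, the enzyme that cleaves S1P irreversibly, went from 2.98, 2.71 and 3.97 FPKM to 5.24, 5.31 and 9.81 FPKM (log2 difference 1.01, SE 0.29, limma adjusted p = 0.0412). The groups did not overlap for either gene, but the call of SGPL1 was kept in 5 of 15 alternatives, with adjusted p from 0.0359 to 0.212, and did not hold under any of the 3 scalings, without a filter, without a variance trend, and when the first, the second or the third NC pig or the second or the third HFCF pig was left out. Macrophage markers were higher in the same libraries, and their part in these differences was not tested. The carrier APOM had 0.487 to 0.897 FPKM in the NC group and 0.862 to 1.10 FPKM in the HFCF group (limma adjusted p = 0.212). PLPP3, the most abundant phosphatase of the list, had 15.2 to 41.4 and 16.4 to 29.2 FPKM (limma adjusted p = 0.692).

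SPHK1 was also set against 2 enzymes of S1P removal within each library, without the more abundant SPHK2. The log2 ratio of SPHK1 over SGPP1 was -0.45, -0.43 and -1.47 in the NC pigs against -1.87, -3.22 and -3.05 in the HFCF pigs. All HFCF pigs lay below all NC pigs, with means of -0.79 ± 0.59 and -2.71 ± 0.73 (SD, n = 3 each) and an exact two-sided permutation p of 0.1, the smallest possible, or 0.4 after adjustment over the 4 ratios computed. This ratio holds the SGPP1 values already given and is no independent result. The ratio of SPHK1 over SGPL1 was -1.07, -0.81 and -2.17 against -0.79, -2.61 and -3.41. These values overlapped, and the first HFCF pig was the highest of all 6. The difference of means was -0.92 (exact permutation p = 0.4) and ran from -1.66 to -0.35 when single libraries were left out. SPNS2 over SPHK1 was 2.70, 2.58 and 2.65 against 1.74, 3.12 and 2.77, nearly equal among the NC pigs (difference of means -0.10, exact permutation p = 1).

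**Figure D5:**
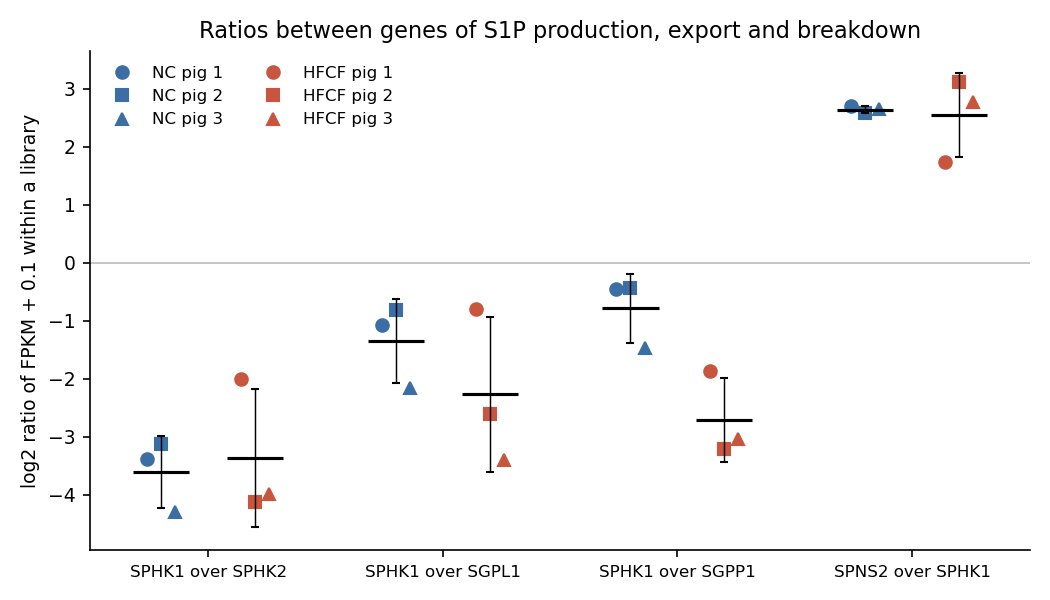
Log2 ratios of FPKM within each library for SPHK1 over SPHK2, SPHK1 over SGPL1, SPHK1 over SGPP1 and SPNS2 over SPHK1, with points for pigs, thick bars for group means and thin bars for the SD (n = 3). SPHK1 over SGPP1 is the ratio whose groups do not overlap, with all NC pigs at or above -1.47 and all HFCF pigs at or below -1.87.

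Downstream of the receptors, 16 genes of G protein coupling, desensitization, S1PR1 regulation and cytoskeletal signalling were all tested, and 5 were called higher and 2 lower, beside 22.8% and 6.16% of all tested genes. Their median log2 difference was 0.48, 0.16 above that of all genes. Among the alpha subunits, GNAI1, an inhibitory subunit used by S1PR1, fell from 2.52, 4.02 and 3.98 FPKM to 1.07, 0.806 and 1.05 FPKM (log2 difference -1.72, SE 0.27, limma adjusted p = 0.00533). GNA12, a subunit used by S1PR2 and S1PR3, fell from 46.8, 35.5 and 41.1 FPKM to 15.6, 22.9 and 21.2 FPKM (log2 difference -1.06, SE 0.19, limma adjusted p = 0.00902). Neither gene had overlapping groups, and smooth muscle markers fell in the same libraries. The part of smooth muscle in these differences was not tested.

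The most abundant inhibitory subunit, GNAI2, had 162.7 to 192.9 FPKM in the NC group and 133.9 to 165.3 FPKM in the HFCF group (limma adjusted p = 0.232, and 0.0284 after median-ratio scaling). GNAQ, which activates phospholipase C, rose from 1.31, 1.75 and 1.46 FPKM to 8.48, 5.08 and 3.88 FPKM (log2 difference 1.81, SE 0.31, limma adjusted p = 0.00729). GNA13, the closest relative of GNA12, rose from 3.11, 1.95 and 4.94 FPKM to 12.9, 6.80 and 8.41 FPKM (log2 difference 1.51, SE 0.38, limma adjusted p = 0.0249). The sister subunits GNA12 and GNA13 thus moved in opposite directions, although the call of GNA13 was lost in 7 of 15 alternatives, with adjusted p up to 0.0812, namely each of the 3 scalings and the fits without the first or second NC pig or the first or the third HFCF pig.

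The arrestins, which uncouple and internalise receptors, rose together. ARRB1 had 4.81, 5.15 and 3.68 FPKM in the NC pigs and 27.9, 15.0 and 10.8 FPKM in the HFCF pigs (log2 difference 1.86, SE 0.34, limma adjusted p = 0.00947). ARRB2 had 4.52, 5.29 and 5.65 FPKM against 55.2, 23.7 and 30.4 FPKM (log2 difference 2.71, SE 0.31, limma adjusted p = 0.00198). In both genes the first HFCF pig was the highest and no groups overlapped, and macrophage markers were higher in the same pigs. The part of macrophages in these differences was not tested.

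ROCK1, a protein kinase that acts on actomyosin contraction, rose, with 4.19 to 5.97 FPKM in the NC group and 7.71 to 10.3 FPKM in the HFCF group (log2 difference 0.90, SE 0.21, limma adjusted p = 0.0187). The call was lost in 7 of 15 alternatives, with adjusted p up to 0.0762, among them each of the 3 scalings and the fits without the first or second NC pig or the second HFCF pig. KLF2, a transcription factor that maintains S1PR1 expression, had 68.2, 76.9 and 52.7 FPKM in the NC pigs and 127.2, 77.7 and 95.2 FPKM in the HFCF pigs. All HFCF pigs lay above all NC pigs, the second by a small margin, but KLF2 was not called (log2 difference 0.59, limma adjusted p = 0.0943). Of all tested genes, 48.2% had no overlap between the groups. The log2 difference of KLF2 was 0.23, 0.50 and 0.33 after median-ratio scaling, quantile normalization and rescaling to TPM. Its limma adjusted p was 0.484 after median-ratio scaling. CD69, a leukocyte surface protein that draws S1PR1 into the cell, was listed at 0 in 2 NC pigs and at 0.05 FPKM in the remaining one, and had 4.73, 0.326 and 0.113 FPKM in the HFCF pigs, highest in the first. It was not called (log2 difference 2.73, SE 1.08, limma adjusted p = 0.0998), and was called in 2 of the 13 alternatives with a value.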

How the data were processed

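Total RNA of the abdominal aorta was sequenced as paired-end reads. Per the labels and methods, the authors trimmed reads with cutadapt 1.9, aligned them to the pig genome (Sscrofa build, older than the reference annotation at hand) using HISAT2, used StringTie for assembly, and deposited gene-level FPKM values. A deposited value of 0.0001 was read as 0. Members and lists were chosen with earlier results of these data known. All members were named, with the called genes of 2 pathway lists and, for a role without one, its most abundant gene. PLPP3, GNAI2 and CD69 were named after their values were seen. PLPP3 was found by gene ID.

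Values were analysed as log2(FPKM + 0.1) with limma 3.58.1 in R 4.3.3 (diet as the only factor, eBayes with trend), and shares and ratios with exact two-sided permutation tests. The code was tested on simulated data. Alternatives were pseudocounts of 1 and 0.01, no filter, a mean FPKM of at least 1, 3 scalings, no trend, a replicate block, each library left out and the DEG thresholds of the study. Depth in reads is unknown, so precision rests on the spread between pigs. Lipidomics was not analysed here. Uncalled signalling genes other than GNAI2, KLF2 and CD69 are not described, and 1 of them is not plotted.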

Additional observations from a re-analysis of the deposited data

How the results depend on the processing

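The count of called S1P genes was 0 in all 15 limma alternatives, with S1PR4 lowest at an adjusted p of 0.0519 without the third HFCF pig. It was 1, S1PR4, by the thresholds of the study. S1PR4 and S1PR5 have no value when a mean of 1 FPKM was required. Several log2 differences changed sign, none of them in a called gene, and the cause was not tested. They were not all small, as that of S1PR5 was -0.70 and went to 0.36 without the second NC pig. SPHK1 went to -0.24, -0.54 and -0.17 with median-ratio scaling, quantile normalization and TPM, S1PR2 to -0.08 and -0.21 with median-ratio scaling and quantile normalization, and with quantile normalization APOM went to -0.10.

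With single libraries left out, the log2 difference ran from -0.50 to 0.40 for SPHK1, -0.41 to 0.17 for S1PR1, -1.50 to 0.36 for S1PR5, -0.26 to 0.15 for SPNS2 and -0.56 to 0.16 for PLPP3. The difference in receptor share ran from -1.74 to 15.3 percentage points for S1PR1 and -0.88 to 0.24 for S1PR5, and the log2 ratio difference from -0.45 to 0.61 for SPHK1 over SPHK2 and -0.39 to 0.31 for SPNS2 over SPHK1. Of the results on S1P genes, shares, ratios and list counts, 20 values under alternatives changed sign and 206 were kept. A list count has no sign and was taken as kept within 1.5 times. Part of the 206 could not change sign, since the filters, the fit without a trend and the replicate block leave a log2 difference unchanged. The handling count was 3 or 4 and the signalling count 5 to 8 over the alternatives.

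The correlations of same-numbered deviations were 0.021, -0.079 and -0.072, and those of differently numbered ones ran from -0.069 to 0.127. Same-numbered pigs were thus not more alike, but 3 pigs per group are too few to settle whether they were paired. With the replicate block 0 S1P genes, 4 handling genes and 6 signalling genes were called, and ROCK1 was lost at an adjusted p of 0.0626.

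Over all genes 4453 were called, 3505 higher and 948 lower. The count was 2772 with the replicate block, 2421 without the first and 2883 without the second NC pig. The split was 2031 higher and 1983 lower with median-ratio scaling, 1748 and 1782 with quantile normalization, and 2146 and 1539 with TPM.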
